A study of Mus musculus with 6 samples.

Results

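The genes described here surround Sirt2 and Ryr1 on mouse chromosome 7, and their transcripts were compared between KOStra8 and HETStra8 testes by gene position. Sirt2 encodes a deacetylase of the sirtuin family, enzymes that need NAD+ to remove acetyl groups from proteins, and its best known substrate in the cytoplasm is acetylated α-tubulin. In testis, acetylated tubulin is found in the manchette and in the flagellum of spermatids. Ryr1 encodes a calcium release channel of the ER that is best known from skeletal muscle. Around both genes lies a dense stretch of unrelated genes, which range from housekeeping genes for transcription and translation to germ cell genes such as Ggn and Selenov.

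The region was chosen on the readout, because Sirt2 and Ryr1 were already known to be higher in KOStra8 testes. Members were the genes of GENCODE mouse release 21 (GRCm38) on chromosome 7 that start between 28000000 and 30500000 and have a summed count of 60 or more over the 6 libraries. Of 146 genes that start there, 88 reached that count and 58 did not. A further 21 were left out by the rule, namely Ryr1 and the genes whose symbols begin with Psm, Catsper, Cox or Zfp. This left 67 members of 55536 genes in the count tables, and all 67 passed the filter on low counts among 21465 genes tested. Of the members, 55 are protein-coding and 12 have no annotated protein. Ryr1 serves as a landmark, and neither it nor Sirt2 is tested here, since their changes selected the region, so counts of members past a threshold are given over the other 66 members.

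RNA came from whole testes of 3 KOStra8 and 3 HETStra8 mice aged 7 weeks, and each mouse gave 1 directional library of poly(A)+ RNA. KOStra8 mice are Sel1Lflox/∆;Stra8-Cre animals, in which a Cre driven by the Stra8 promoter removes the floxed allele in male germ cells, and the other allele is already deleted. The HETStra8 littermates are given as Sel1Lflox/∆ in the deposited record, whereas the paper also places flox/+ mice with Stra8-Cre under that name, and the genotype of each HETStra8 mouse was not given. The Stra8 promoter is active in only part of the spermatogonia, and Sertoli cells keep SEL1L. Library totals lay between 28875108 and 36526695 counts. The targeted gene Sel1l was counted 1413 to 1603 times in HETStra8 and 636 to 846 times in KOStra8 libraries, without overlap. Levels are given as CPM, counts relative to the TMM-adjusted total of the library, and the test was edgeR's two-sided quasi-likelihood F test with Benjamini-Hochberg adjustment over all genes tested. Because whole testis was used, a lower level can come from fewer cells of a type or from less RNA per cell, and these cannot be told apart.

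At the rule's count limit, E130208F15Rik with 60 counts and 2200002D01Rik with 61 counts were the members just inside, and Lrfn3 with 48 and Gm44744 with 40 were just outside. By position, the first member was Fcgbp, which starts at 28071236, and the last was Aplp1, which starts at 30434982. Under the same count limit and name exclusions, the next gene below the region was Gm26891. It starts at 27927724 and had a log2 fold change of −0.11. Above the region the next such gene was Arhgap33os, which starts at 30515122, with a log2 fold change of −0.00.

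Upstream sequences are shown for Sirt2 and for the pair of other members with the smallest p-values, Eif3k and Fam98c, so that the DNA before their starts can be read beside their levels. They were taken from RefSeq promoter windows of GRCm38.p6 and trimmed to the bases that lie before the gene, and are written 5′ to 3′ along the strand of the gene. Capitals mark the motifs named for each sequence. The Sirt2 stretch, chr7:28766645-28766734 on the plus strand, lies between the starts of Sirt2 and of Nfkbib, which is transcribed the other way from a RefSeq start 107 bases from that of Sirt2. Eif3k has the stretch chr7:28981889-28982049 on the minus strand, which fills the 161 bases between its start and the oppositely transcribed start of Map4k1. For Fam98c the stretch is chr7:29156235-29156460 on the minus strand, and it runs through the exon of the antisense RNA 1110035H17Rik.
Sirt2: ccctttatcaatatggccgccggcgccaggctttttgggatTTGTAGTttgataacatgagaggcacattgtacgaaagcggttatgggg
Eif3k: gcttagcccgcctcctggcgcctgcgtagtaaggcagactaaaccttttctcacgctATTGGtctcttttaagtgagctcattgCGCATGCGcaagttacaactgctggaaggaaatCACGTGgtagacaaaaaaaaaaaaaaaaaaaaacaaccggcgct
Fam98c: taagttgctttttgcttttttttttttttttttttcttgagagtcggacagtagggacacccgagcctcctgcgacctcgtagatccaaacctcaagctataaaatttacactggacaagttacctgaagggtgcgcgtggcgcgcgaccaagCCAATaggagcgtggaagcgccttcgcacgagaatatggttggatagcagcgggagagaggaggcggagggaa

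In Sirt2 the capitals mark ACTACAA on the reverse strand, the core of the motif of the ZNF143 factor. In Eif3k they mark, from left to right, CCAAT on the reverse strand, CGCATGCG of the NRF1 motif and CACGTG, the E-box. In Fam98c they mark a single CCAAT. Motif shares were counted over whole RefSeq windows of 300 bases, which are longer than the trimmed stretches printed here. Over all 32851 such windows, searched on both strands with overlaps between motifs allowed, ACTACAA was present in 3.24%, CCAAT in 37.4%, CGCATGCG in 1.87%, CACGTG in 7.15%, GGGCGG in 35.7% and TGACGTCA in 1.79%. RefSeq windows matched 51 of the 67 members. Of these 51, GGGCGG was in 35, CCAAT in 28, CACGTG in 6, CGCATGCG in 3, ACTACAA in 2 and TGACGTCA in 0. A member was counted when any of its windows held the motif, whereas the shares above are of single windows. The member counts therefore cannot be compared with those shares. A match describes the letters in the window and is no evidence that a factor binds there.

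Sirt2 (ENSMUSG00000015149) extends from 28766735 to 28788661 on the plus strand, 214.68 kb below the Ryr1 gene body. It had 4453, 4952 and 4857 reads in the HETStra8 libraries (mice 1 to 3) and 7888, 6778 and 8327 in the KOStra8 libraries. The levels were 142, 147 and 146 CPM in HETStra8 and 226, 234 and 228 CPM in KOStra8 testes. The mice of each group were close together and the groups were far apart. The level in KOStra8 was 158% of that in HETStra8, a log2 fold change of 0.66, or 0.79 once fold changes were corrected for GC content and length of the transcripts. Under all 15 alternatives the log2 fold change was between 0.65 and 0.79. Ryr1, the landmark from 29003344 to 29125179, had 274, 229 and 208 reads in the HETStra8 libraries (mice 1 to 3) and 1134, 637 and 949 in the KOStra8 libraries, a log2 fold change of 1.89.

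The genes next to Sirt2 had log2 fold changes of −0.14 (Nfkbib), 0.17 (Rinl) and 0.03 (Hnrnpl), against 0.66 for Sirt2 itself, and of 0.02, 0.32 and 0.17 after the correction, so that Nfkbib changed sign. Nfkbib, which encodes the NF-κB inhibitor IκBβ and starts back to back with Sirt2, had 3789, 3719 and 3948 reads in the HETStra8 libraries (mice 1 to 3) and 3728, 3155 and 3718 in the KOStra8 libraries. Its level was 117 ± 5.29 CPM in HETStra8 against 106 ± 3.66 CPM in KOStra8 testes (SD, n = 3 each), with an unadjusted p = 0.0869 in edgeR's quasi-likelihood test. Hnrnpl, which encodes a splicing regulator and lies on the other side of Sirt2 beyond Rinl, was at 180 ± 4.94 CPM against 184 ± 6.80 CPM (SD, n = 3 each, HETStra8 first). Ratios within a library do not depend on its depth or scaling. For each Nfkbib read there were 1.18, 1.33 and 1.23 Sirt2 reads in HETStra8 mice and 2.12, 2.15 and 2.24 in KOStra8 mice. For each Hnrnpl read there were 0.775, 0.846 and 0.801 Sirt2 reads in HETStra8 mice and 1.21, 1.25 and 1.30 in KOStra8 mice. In both ratios every KOStra8 mouse was above every HETStra8 mouse. Since the rise of Sirt2 selected the region, this separation is a description and no test of that rise. Nfkbib and Sirt2 share 42 exon bases on opposite strands, which is 0.83% of the exon length of Sirt2. Nfkbib, Rinl and Hnrnpl were picked for this comparison after their values were seen.

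Of the 66 members other than Sirt2, 0 were at an edgeR adjusted p below 0.05, where 5 of all genes tested (0.0233%) were. Likewise 0 were past a fold of 2 at an adjusted p below 0.01, which 2 of all genes (0.00932%) were. At an unadjusted p below 0.05, 4 of the 66 were higher in KOStra8, or 6.06% beside 7.13% of all genes tested, and 15 were lower, or 22.7% beside 5.12% of all genes. DESeq2's Wald test gave 4 of the 66 at an adjusted p below 0.05 and limma-voom gave 1. Shares of all genes under these other tests were not counted, so these numbers cannot be set beside the edgeR shares. The higher members at an unadjusted p below 0.05 were Gm44710, Gmfg, Spred3 and 4932431P20Rik. Those lower were Eid2b, Samd4b, Fbxo27, Ech1, Eif3k, Fam98c, 1110035H17Rik, Yif1b, Ppp1r14a, Dpf1, Sipa1l3, Capns1, Wdr62, Clip3 and Aplp1. For 5 of the 66 each KOStra8 mouse lay above each HETStra8 mouse, which is 7.58% beside 9.33% of all genes. They were below for 14, which is 21.2% beside 8.43% of all genes. The median log2 fold change of the 66 was −0.16, against −0.01 over all genes tested, with 20 above 0 and 46 below.

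**Figure D1:**
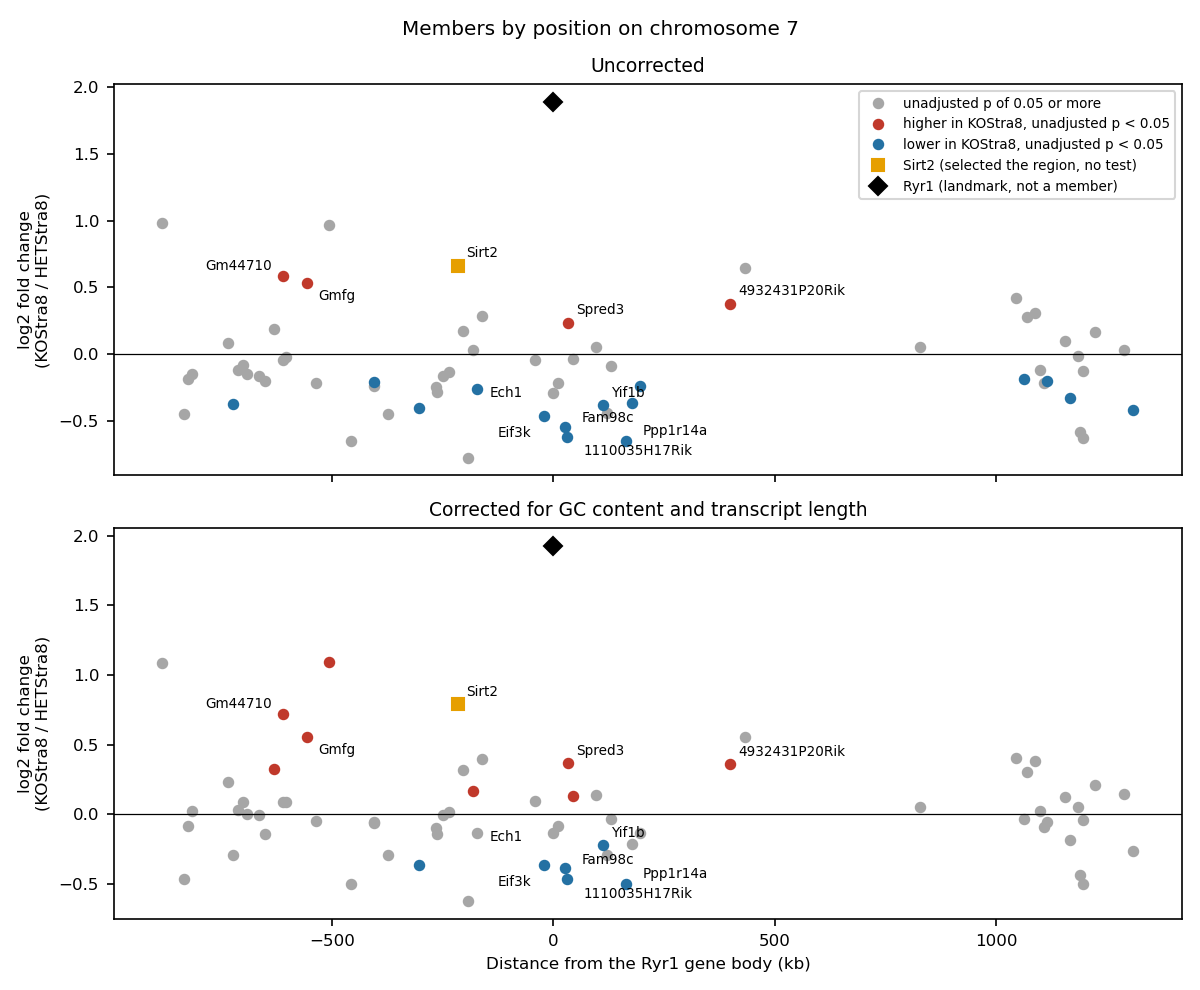
The log2 fold change of each of the 67 members (vertical axis, KOStra8 over HETStra8) is plotted against its distance from the Ryr1 gene body in kb (horizontal axis, negative below Ryr1), before (top) and after (bottom) correcting for GC content and length. Sirt2 (square, not tested) stands at 0.66 in the top panel, Ryr1 (diamond) at 1.89, and the lower members (blue) number 15 in the top and 6 in the bottom panel.

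These shares have to be read beside the base composition of the region. The median GC content of the members' longest transcripts was 56.0%, against 48.8% over all genes tested, and fold changes in these libraries followed GC content, since across 21457 genes, which share the same 6 libraries, Spearman's rho between both was −0.46. Among genes of 55 to 60% GC, the median log2 fold change was −0.14 over 3246 genes of the whole table and −0.21 over 31 members. Among genes of 50 to 55% GC it was −0.09 over 5301 genes and −0.02 over 16 members. After the correction for GC content and length, the median of the 66 members other than Sirt2 was −0.02, beside 0.01 over all genes. Those lower at an unadjusted p below 0.05 then numbered 6, or 9.09% beside 3.14% of all genes, and the higher ones 8, or 12.1% beside 4.33% of all genes. At an adjusted p below 0.05 the corrected edgeR comparison held 0 of the 66, where 14 of all genes (0.0652%) passed. The members lower after the correction were Fbxo27, Eif3k, Fam98c, 1110035H17Rik, Yif1b and Ppp1r14a. The higher ones were Plekhg2, Gm44710, Gmfg, 1700028B04Rik, Hnrnpl, Spred3, Ggn and 4932431P20Rik. Hnrnpl, next to Sirt2, had a corrected log2 fold change of 0.17 (unadjusted p = 0.0192 in edgeR's test) and Ggn at 0.13 (unadjusted p = 0.0254 in edgeR's test).

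**Figure D2:**
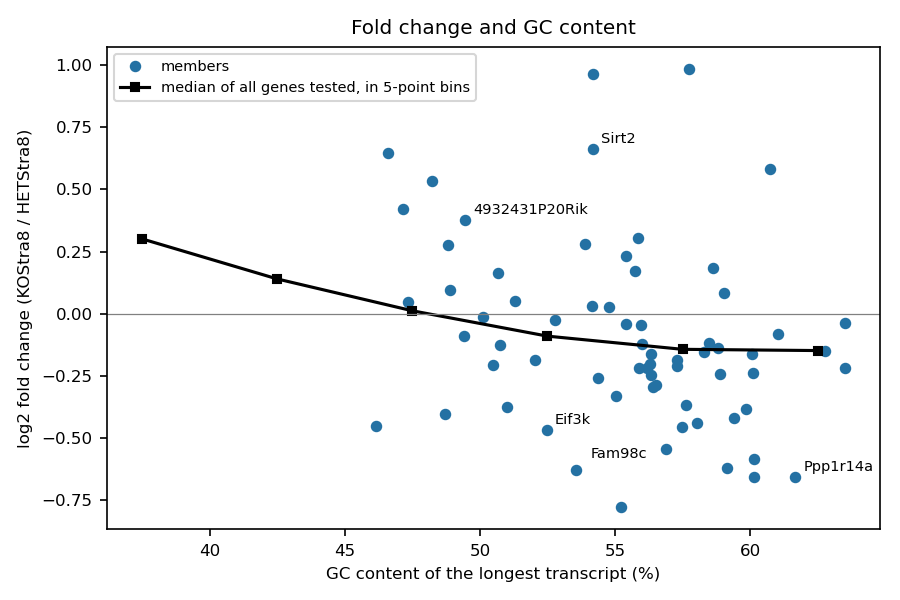
Each point is a member, with the GC content of its longest transcript in percent on the horizontal axis and its uncorrected log2 fold change (KOStra8 over HETStra8) on the vertical axis. Black squares are the medians of all genes tested in bins of 5 percentage points, which go from 0.30 at 35 to 40% GC to −0.15 at 60 to 65% GC, and most members lie at the GC-rich end.

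By position, in 5 windows of 0.5 Mb and without Sirt2, the window in which Ryr1 starts had the lowest median. From 28.0 to 28.5 Mb, 2 of 19 members were higher (10.5%, beside 7.13% of all genes tested) and 2 were lower (10.5%, beside 5.12%) at an unadjusted p below 0.05, with a median log2 fold change of −0.12. From 28.5 to 29.0 Mb, 0 of the 16 members other than Sirt2 were higher and 3 were lower (18.8%), with a median of −0.25. From 29.0 to 29.5 Mb, where Ryr1 starts, 1 of 12 was higher (8.33%) and 6 were lower, with a median of −0.305. The 3 members from 29.5 to 30.0 Mb have no annotated protein and were all above 0, with 1 higher and a median of 0.38. From 30.0 to 30.5 Mb, 0 of 16 were higher and 4 were lower (25.0%), with a median of −0.12. After the correction for GC content the medians in the same order were 0.03, −0.12, −0.17, 0.36 and −0.01. The corrected counts were 4 higher and 0 lower, 1 and 2, 2 and 4, 1 and 0, and 0 and 0, beside 4.33% higher and 3.14% lower of all genes. With windows of 0.25 Mb the lowest median was −0.305, from 29.25 to 29.5 Mb, and the window in which Ryr1 starts was at −0.30. A difference between windows was not tested.

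The flanking stretches of chromosome 7, each as long as the region and taken with the same count limit and name exclusions, also had medians below 0. In the stretch directly below, 0 of 39 genes tested were higher and 6 were lower (15.4%) at an unadjusted p below 0.05. Of all genes tested, 7.13% were higher and 5.12% were lower. The median log2 fold change of that stretch was −0.17. In the stretch directly above, 0 of 31 genes tested were higher and 4 were lower (12.9%), with a median of −0.12. On the rest of chromosome 7, 85 of 1467 genes tested (5.79%) were higher and 130 (8.86%) were lower, with a median of −0.05. With the GC and length correction, the flanking stretches held 0 higher genes, with 1 lower gene below (2.56%) and 0 above. Of all genes, 4.33% were then higher and 3.14% lower. The corrected medians of the flanking stretches were −0.08 and −0.04.

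Next to Ryr1 on its lower side lie, in order of position, Ech1, Lgals4, Actn4, Eif3k and Map4k1. Eif3k, which encodes a subunit of the translation initiation factor eIF3, lies 21.48 kb from Ryr1 between 28971372 and 28981864 on the minus strand. It had 3532, 3469 and 3392 reads in the HETStra8 libraries (mice 1 to 3) and 2434, 2390 and 2810 in the KOStra8 libraries. Its level was 106 ± 5.77 CPM in HETStra8 against 76.4 ± 6.46 CPM in KOStra8 testes (SD, n = 3 each), and every KOStra8 mouse was below every HETStra8 mouse. The log2 fold change was −0.47 with an SE of 0.0857 and an edgeR adjusted p = 0.0682, and −0.37 after the correction at an edgeR adjusted p = 0.0983. It passed an adjusted p of 0.05 in 5 of the 15 alternatives, over which the adjusted p ranged from 7.16e-05 to 0.417.

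Map4k1, which encodes a protein kinase of blood cells and shares with Eif3k the promoter stretch printed above, had 418, 495 and 417 reads in the HETStra8 libraries (mice 1 to 3) and 439, 264 and 414 in the KOStra8 libraries. Its groups overlapped (unadjusted p = 0.0648 in edgeR's test). For each Map4k1 read there were 8.45, 7.01 and 8.13 Eif3k reads in HETStra8 mice and 5.54, 9.05 and 6.79 in KOStra8 mice, so this ratio overlapped too. Actn4, which encodes the actin cross-linker α-actinin-4, was at 61.5 ± 4.31 CPM against 59.8 ± 2.25 CPM (SD, n = 3 each, HETStra8 first), and its log2 fold change of −0.04 became 0.10 with the GC correction. For each Actn4 read there were 1.83, 1.80 and 1.54 Eif3k reads in HETStra8 mice and 1.12, 1.42 and 1.31 in KOStra8 mice, which did not overlap. The ratios to Map4k1 and to Actn4 were added after the values were seen. Ech1, which encodes a fatty acid oxidation enzyme of mitochondria and peroxisomes, was at 61.3, 54.1 and 53.5 CPM in HETStra8 and 48.4, 48.7 and 43.9 CPM in KOStra8. Its log2 fold change was −0.26 (unadjusted p = 0.0127 in edgeR's test) and −0.13 after the correction. Lgals4, which encodes galectin-4, was at 4.68 ± 0.895 CPM against 5.70 ± 0.792 CPM (SD, n = 3 each, HETStra8 first), with overlap between the groups.

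On the upper side of Ryr1 lie Rasgrp4, Fam98c, 1110035H17Rik, Spred3 and Ggn. Fam98c encodes a relative of the FAM98 proteins of the tRNA ligase complex, and lies 27.33 kb from Ryr1 between 29152510 and 29156234 on the minus strand. It had 4733, 4752 and 4246 reads in the HETStra8 libraries (mice 1 to 3) and 3033, 2912 and 3649 in the KOStra8 libraries. This made 140 ± 11.7 CPM in HETStra8 against 95.8 ± 7.77 CPM in KOStra8 testes (SD, n = 3 each), a fitted fold of 0.685, without overlap. The log2 fold change was −0.54 with an SE of 0.0877 and an edgeR adjusted p = 0.0521, and −0.39 after the correction at an edgeR adjusted p = 0.0983. Over the 15 alternatives it lay between −0.60 and −0.39, and the adjusted p, from 3.93e-07 to 0.337, passed 0.05 in 7 of them.

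1110035H17Rik, an antisense RNA with no annotated protein, begins inside the first part of Fam98c on the opposite strand. It had 194, 210 and 148 reads in the HETStra8 libraries (mice 1 to 3) and 114, 131 and 117 in the KOStra8 libraries, with 1 KOStra8 mouse at 4.53 CPM just above the lowest HETStra8 mouse at 4.44 CPM. Its log2 fold change was −0.62 with an SE of 0.217 and an edgeR adjusted p = 0.286. For each 1110035H17Rik read there were 24.4, 22.6 and 28.7 Fam98c reads in HETStra8 and 26.6, 22.2 and 31.2 in KOStra8 mice, with overlap between the groups. The exons of both genes share 555 bases, which is 44.72% of the exon length of 1110035H17Rik and 20.46% of that of Fam98c. Fam98c shares another 978 exon bases with Rasgrp4 on the opposite strand. The strand setting of the counting was not given in the sources used here, so reads of such pairs cannot be told apart. E130208F15Rik, which lies wholly inside exons of Sdhaf1 on the opposite strand, had 60 counts where Sdhaf1 had 1266.

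Ggn, which encodes the germ cell protein gametogenetin, had the highest level per kilobase of all members, at a mean of 188 CPM per kb of exon. It was at 555, 540 and 510 CPM in HETStra8 and 498, 548 and 517 CPM in KOStra8, and the groups overlapped. Its log2 fold change of −0.04 became 0.13 with the GC correction. For each Ggn read there were 0.271, 0.262 and 0.25 Fam98c reads in HETStra8 and 0.175, 0.184 and 0.193 in KOStra8 mice, without overlap. The Fam98c ratios to Ggn and to 1110035H17Rik were added after the values were seen, and they carry no GC correction. Spred3, which encodes an inhibitor of Ras signalling of the Sprouty-related family, was at 44.2, 50.7 and 61.0 CPM in HETStra8 and 60.3, 62.5 and 60.5 CPM in KOStra8 mice. HETStra8 mouse 3 lay inside the KOStra8 range, and the log2 fold change was 0.23 with an SE of 0.107 and an edgeR adjusted p = 0.399. Without HETStra8 mouse 3 the adjusted p of Spred3 was 0.0247 in edgeR's test. Rasgrp4, which encodes a Ras activator of mast cells, had only 12 to 18 counts per library.

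**Figure D3:**
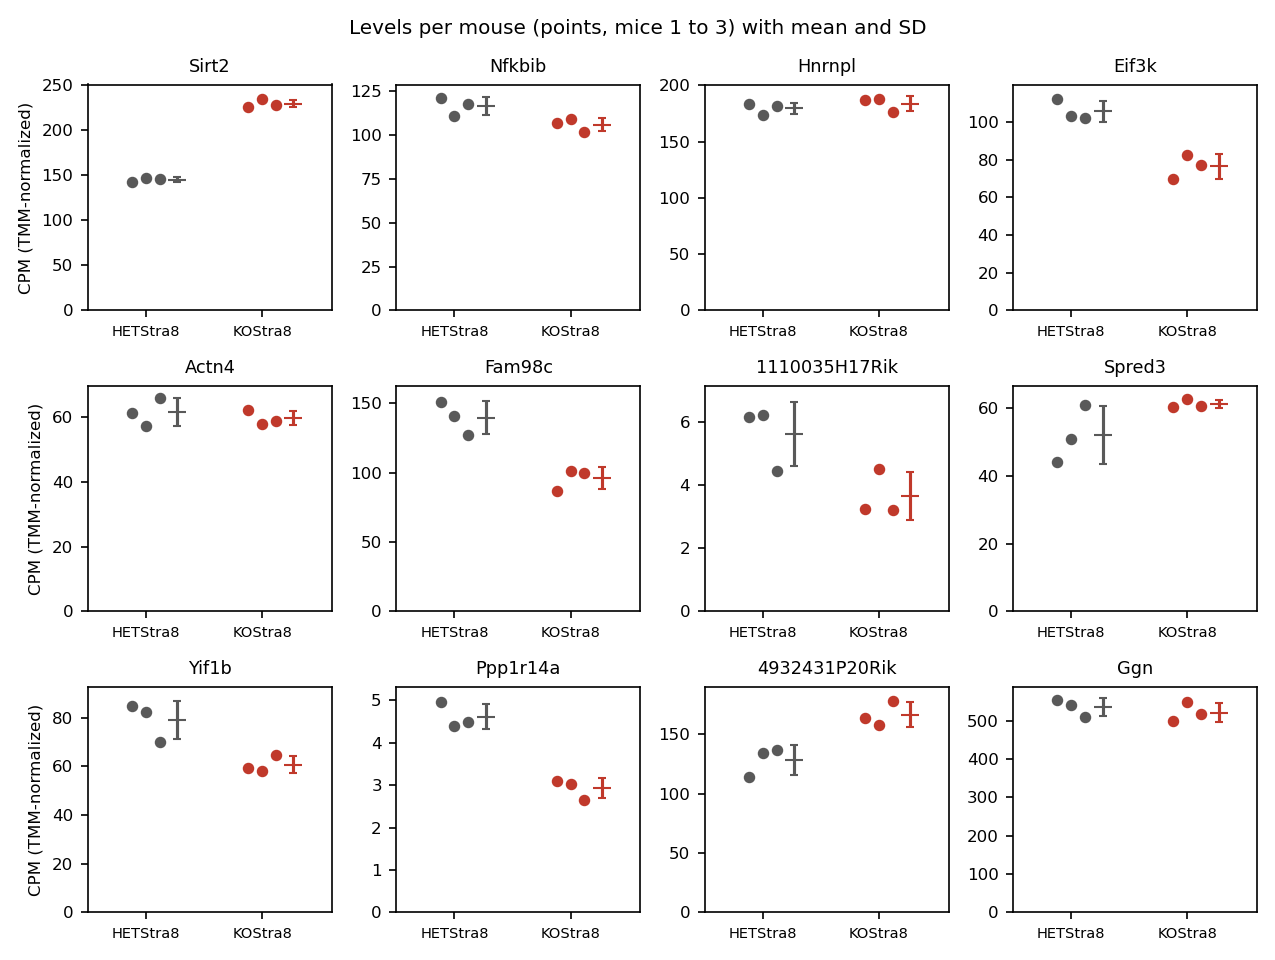
Each panel shows a member of the region, with points for HETStra8 (grey) and KOStra8 (red) mice 1 to 3, a bar for the mean and whiskers for the SD, in TMM-normalized CPM from 0 on the vertical axis. Sirt2 and 4932431P20Rik are higher, and Nfkbib, Eif3k, Fam98c, Yif1b and Ppp1r14a are lower, in all KOStra8 mice, whereas Actn4, Hnrnpl, Spred3, Ggn and 1110035H17Rik overlap.

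Of the members farther from Ryr1, leaving Sirt2 aside, 4932431P20Rik and Yif1b had the smallest p-values. Yif1b, which encodes a membrane protein of transport between ER and Golgi, was at 84.9, 82.3 and 70.2 CPM in HETStra8 and 59.3, 58.2 and 64.6 CPM in KOStra8 mice, without overlap. Its log2 fold change was −0.38 with an SE of 0.0918 and an edgeR adjusted p = 0.141, and −0.22 after the correction. 4932431P20Rik, annotated as a transcribed unitary pseudogene and placed 399.36 kb above Ryr1, had 3599, 4493 and 4556 reads in the HETStra8 libraries (mice 1 to 3) and 5731, 4571 and 6501 in the KOStra8 libraries. At 114, 134 and 137 CPM in HETStra8 against 164, 158 and 178 CPM in KOStra8, its groups did not overlap. Its log2 fold change was 0.38 with an SE of 0.085 and an edgeR adjusted p = 0.126, and 0.36 after the correction. Both genes passed an adjusted p of 0.05 with DESeq2, with no filter on low counts, and without HETStra8 mouse 3.

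By function, in groups formed after the values were seen, most protein-coding members of each group but the signalling one lay below 0 before the correction, and counts at an unadjusted p below 0.05 stand beside 7.13% higher and 5.12% lower of all genes tested (4.33% and 3.14% with the correction). All 7 members for translation and mitochondria (Rps16, Eif3k, Sars2, Mrps12, Timm50, Ech1 and Sdhaf1) had a negative log2 fold change, of which 2 were lower (28.6%), or 1 with the correction, with a median of −0.20, or −0.13 with the correction. Of 12 members for transcription and RNA, 3 had a log2 fold change above 0 and 9 below, 0 were higher and 4 were lower (33.3%, Eid2b, Samd4b, Dpf1 and Fam98c), and the median was −0.17. With the correction 5 of the 12 were above 0, 1 was higher (Hnrnpl) and 1 was lower (Fam98c), and the median was −0.03. Samd4b, which encodes an RNA-binding protein related to Smaug, was at 342 ± 16.6 CPM in HETStra8 against 296 ± 7.64 CPM in KOStra8 testes (SD, n = 3 each). Dpf1, which encodes a subunit of the BAF chromatin remodelling complex, was at 9.03 ± 0.55 CPM against 7.01 ± 0.61 CPM (SD, n = 3 each, HETStra8 first). Eid2b, of a family of differentiation inhibitors, was at 10.1 ± 1.01 CPM against 7.77 ± 0.90 CPM (SD, n = 3 each, HETStra8 first). Over all genes tested the median was −0.01 without and 0.01 with the correction.

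All 7 members for the cytoskeleton and centrosome lay below 0 before the correction, and 4 of them were lower at an unadjusted p below 0.05 (57.1%, Capns1, Wdr62, Clip3 and Sipa1l3), with a median of −0.20. With the correction the median was −0.06, 2 of the 7 were above 0, and 0 were lower. Wdr62, which encodes a spindle pole protein, was the member with the most reads, at 842, 819 and 700 CPM in HETStra8 and 701, 677 and 676 CPM in KOStra8 mice, and HETStra8 mouse 3 overlapped with the KOStra8 group. Capns1, which encodes the small subunit of calpains, was at 240, 229 and 208 CPM in HETStra8 and 194, 204 and 196 CPM in KOStra8. Sipa1l3, which encodes an activator of Rap GTP hydrolysis, was at 95.2 ± 5.87 CPM against 80.5 ± 2.12 CPM (SD, n = 3 each, HETStra8 first). Clip3, which encodes a microtubule-associated protein, was at 10.7 ± 1.14 CPM against 8.46 ± 0.364 CPM (SD, n = 3 each, HETStra8 first).

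Members for signalling and immune functions were mixed. Of the 13 other than Sirt2, 2 were higher (15.4%, Spred3 and Gmfg) and 1 was lower (7.69%, Ppp1r14a), or 3 and 1 with the correction, with a median of −0.08, or 0.08 with the correction. Ppp1r14a, which encodes the myosin phosphatase inhibitor CPI-17 of smooth muscle, had 156, 148 and 150 reads in the HETStra8 libraries (mice 1 to 3) and 108, 88 and 97 in the KOStra8 libraries. The groups did not overlap, and the log2 fold change was −0.66 with an SE of 0.202 and an edgeR adjusted p = 0.235. The 5 markers of peritubular myoid cells, the smooth muscle-like cells of the tubule wall, summed to 105 to 146 CPM in HETStra8 and 106 to 122 CPM in KOStra8 mice. At an unadjusted p below 0.05, 1 of these markers was lower, beside 5.12% of all genes tested. The part of these cells in the Ppp1r14a difference was not tested. Gmfg, a regulator of actin branching in blood cells, was at 2.83, 3.57 and 4.74 CPM in HETStra8 and 6.81, 5.04 and 4.27 CPM in KOStra8, with overlap. Dyrk1b, a protein kinase gene with 182 CPM per kb, was at 514 ± 42.2 CPM against 464 ± 14.2 CPM (SD, n = 3 each, HETStra8 first), and its log2 fold change of −0.15 became 0.02 with the correction.

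Among 15 other protein-coding members, 13 had a log2 fold change below 0, 0 were higher and 3 were lower at an unadjusted p below 0.05 (Fbxo27, Yif1b and Aplp1), with a median of −0.25. With the correction 1 was higher and 2 were lower, and the median was −0.10. Aplp1, which encodes a relative of the amyloid precursor protein, was at 11 ± 2.29 CPM against 8.26 ± 0.613 CPM (SD, n = 3 each, HETStra8 first), and the groups overlapped. Fbxo27, which encodes an F-box protein of a ubiquitin ligase, was at 8.94, 10.2 and 7.47 CPM in HETStra8 and 7.67, 6.01 and 6.44 CPM in KOStra8. Selenov, a selenoprotein gene of the testis with 146 CPM per kb, was at 221 ± 7.55 CPM against 204 ± 13.4 CPM (SD, n = 3 each, HETStra8 first), with overlap, and its log2 fold change went from −0.12 to 0.03 with the correction. The largest log2 fold change upward was that of Fcgbp, a gene for a mucus protein, at 0.98, but on only 10, 11 and 7 counts in HETStra8 and 26, 15 and 16 counts in KOStra8 mice (unadjusted p = 0.0837 in edgeR's test). Nccrp1, at −0.66, had 3 to 20 counts per library.

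The 12 members without an annotated protein lay mostly above 0, in contrast to the protein-coding ones, although this difference was not tested. They had 9 log2 fold changes above 0 and 3 below, with a median of 0.29, or 0.33 with the correction, and a median GC content of 50.1%. The 54 protein-coding members other than Sirt2 had 11 above 0 and 43 below, with a median of −0.19, or −0.04 with the correction. Without a protein, 2 were higher at an unadjusted p below 0.05 (Gm44710 and 4932431P20Rik) and 1 was lower (1110035H17Rik). Gm44710 had 54, 76 and 70 reads in the HETStra8 libraries (mice 1 to 3) and 105, 92 and 107 in the KOStra8 libraries, and it shares exon bases on the opposite strand with Zfp36 and Med29. 1700028B04Rik had 17, 14 and 28 reads in the HETStra8 libraries (mice 1 to 3) and 40, 19 and 62 in the KOStra8 libraries, with overlap, and its log2 fold change was 0.97 (unadjusted p = 0.0507 in edgeR's test). Gm44702, with the largest negative value at −0.78, rested on 31 counts in HETStra8 mouse 1 and had 7 to 11 counts in the other libraries, and without that mouse its log2 fold change was 0.17.

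**Figure D4:**
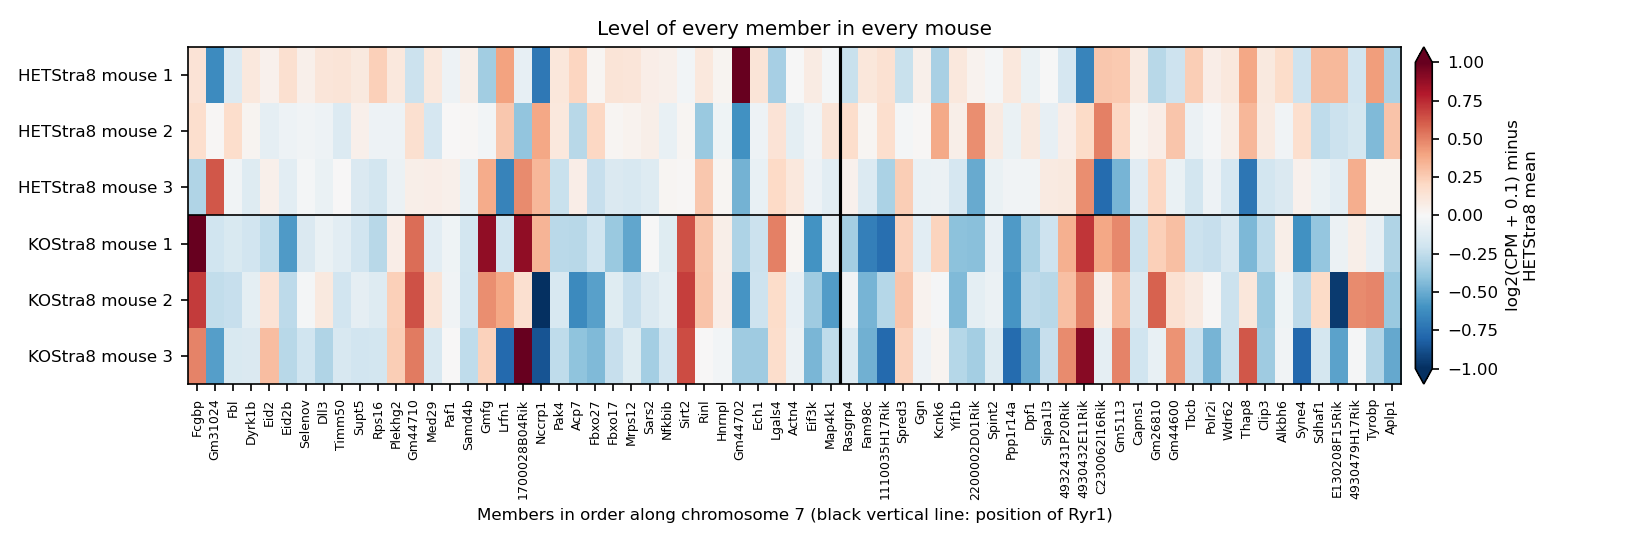
Rows are the 6 mice and columns are the 67 members in order along chromosome 7, coloured by log2(CPM + 0.1) minus the HETStra8 mean, from −1 (blue) to 1 (red). The Sirt2 column is red in all 3 KOStra8 mice between pale neighbours, and the columns of Eif3k, Fam98c and 1110035H17Rik on either side of the Ryr1 line are blue.

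Of the other genes of the Sirt2 pathway, 0 were at an edgeR adjusted p below 0.05. The 6 other sirtuins summed to 112 to 121 CPM in HETStra8 and 123 to 131 CPM in KOStra8 testes. Counts at an unadjusted p below 0.05 stand here beside 7.13% higher and 5.12% lower of all genes tested. These counts were not made again with the GC and length correction. Among these sirtuins 1 was higher at that limit and 0 were lower. That gene, Sirt1, which encodes a nuclear deacetylase, was at 31.5, 28.4 and 34.5 CPM in HETStra8 and 42.6, 38.1 and 42.5 CPM in KOStra8 mice. Its log2 fold change was 0.38 with an SE of 0.101 and an edgeR adjusted p = 0.181, and 0.29 after the correction. Sirt3, the main sirtuin of mitochondria, was at 47.1 ± 2.68 CPM against 46.9 ± 1.31 CPM (SD, n = 3 each, HETStra8 first). Of 10 tested genes for NAD supply and use out of 11, 0 were higher and 0 were lower, with a lowest adjusted p = 0.472 in edgeR's test. Of 4 names listed for tubulin acetylation and other deacetylases, 3 matched a gene. Among these genes 0 were higher and 1, Hdac6, was lower (unadjusted p = 0.0358 in edgeR's test). Hdac6, which also removes acetyl groups from tubulin, was at 66.8, 79.5 and 77.4 CPM in HETStra8 and 66.7, 65.9 and 61.2 CPM in KOStra8. Its log2 fold change was −0.21 at an edgeR adjusted p = 0.376, and −0.115 after the correction. Atat1, which acetylates tubulin, was at 52.4 ± 3.06 CPM against 58.4 ± 2.80 CPM (SD, n = 3 each, HETStra8 first). Its log2 fold change was 0.16, and 0.28 after the correction.

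Of 13 marker lists for testis cell types, muscle and blood, 0 held a gene at an adjusted p below 0.05, and 3 had summed levels that did not overlap between the groups. Of single genes tested, 9.33% were above and 8.43% below in all KOStra8 mice, and no such share was counted for summed lists. Marker counts at an unadjusted p below 0.05 stand beside 7.13% higher and 5.12% lower of all genes tested. They were not counted again with the correction. The 6 markers of leptotene and zygotene spermatocytes summed to 223 to 346 CPM in HETStra8 and 360 to 394 CPM in KOStra8 testes, with 1 of 6 higher at an unadjusted p below 0.05, and their median log2 fold change of 0.25 became 0.00 with the GC correction. The 8 Sertoli cell markers summed to 1030 to 1240 CPM in HETStra8 and 856 to 980 CPM in KOStra8, with 4 of 8 lower at an unadjusted p below 0.05, and their median of −0.28 became −0.13. The 8 skeletal muscle markers summed to 20.1 to 22.5 CPM in HETStra8 and 15.4 to 20 CPM in KOStra8 testes, with a median of −0.24, or −0.13 with the correction, over the 4 that passed the filter on low counts. Actn3 made up most of that sum, at 16.1 ± 2.7 CPM against 13.5 ± 1.56 CPM (SD, n = 3 each, HETStra8 first), and the mean of Acta1, the muscle actin, was 0.229 CPM in HETStra8 and 0.181 CPM in KOStra8. In the other 10 lists the summed levels overlapped, and at an unadjusted p below 0.05 they held 1 higher and 4 lower genes. The part of these cell types in the members' differences was not tested.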

How the data were processed

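The authors deposited, for each of the 6 testes, 1 table of raw counts, the whole number of reads on each of 55536 Ensembl genes. The submitters' processing notes name STAR 2.7.1a, Picard 2.20.4, StringTie 2.0.4, featureCounts 1.6.0 and the builds mm10 and GRCm38, without roles or order, and the strand setting is not given in the sources used here. All identifiers were found in GENCODE mouse release 21.

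Counts were fitted over the whole table in R 4.3.3 with edgeR 4.0.16 (filterByExpr, TMM, robust quasi-likelihood F test, genotype as the only term). Both groups held 3 mice. The common biological coefficient of variation was 0.160, and an exact permutation test of 3 against 3 cannot go below 0.1. P-values measure the spread between these mice. Offsets corrected for GC content and length came from loess curves (span 0.3, genes above a log2 CPM of 2), using the longest transcript of each gene. SE is the log2 fold change divided by the square root of F. Steps were tested on simulated data.

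Members and lists were chosen with earlier results of these data known. Named genes were Sirt2, the 5 members on each side of Ryr1, those at an unadjusted p below 0.05, the 3 largest rises and falls, the 3 highest levels per kb, and Ggn and Selenov. Alternatives were DESeq2 1.42.0 and its size factors, library totals, no low-count filter or a minimum of 10 per library, the replicate number as a block, the GC correction, limma-voom (limma 3.58.1) and leaving out each mouse.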

Additional observations from a re-analysis of the deposited data

How the results depend on the processing

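Counts here are over the members other than Sirt2, which selected the region. The count of members past an adjusted p of 0.05 was 0 in the comparison as reported. It was 4 with no filter on low counts and 1 with at least 10 counts in every sample (60 members tested). It was 2 with the replicate number as a block, 4 with DESeq2, 1 with limma-voom, and 0 to 7 with each mouse left out. HETStra8 mouse 3 weighed most, with 7 members without it, and there were 2 without HETStra8 mouse 1. Beyond the reported and the corrected comparison, shares of all genes were not counted for each setting. The counts in this paragraph therefore cannot be read as changes of the region alone. The 4 members higher at an unadjusted p below 0.05 became 8 with the GC and length correction, with or without the block. With each mouse left out they numbered 2 to 6, with 2 without HETStra8 mouse 2 or any 1 of the KOStra8 mice. The 15 lower members became 6 with the correction, 5 with the correction and the block, and 7 to 19 with each mouse left out, with 9 without HETStra8 mouse 2 and 7 without KOStra8 mouse 3. The median log2 fold change of these members stayed between −0.20 and −0.02 in all 15 alternatives. That of the window around the start of Ryr1 was −0.30 with windows of 0.25 Mb, where another window was lower at −0.305. With windows of 1 Mb it was −0.22. Of 34 members followed through the alternatives, 28 kept their direction. With the correction, Actn4 turned to 0.096, Ggn to 0.13, Selenov to 0.031, Dyrk1b to 0.023 and Nfkbib to 0.018, and with the block added to 0.101, 0.13, 0.031, 0.023 and 0.02. With each mouse left out, Actn4 ranged from −0.091 to 0.021 (highest without HETStra8 mouse 3) and Gm44702 from −1.114 to 0.174 (highest without HETStra8 mouse 1). The cause was not tested. Deviations of mice with the same number correlated at −0.06, −0.05 and 0.11, so the numbers were not taken as pairs.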
